A study of Mus musculus with 2 samples.

Results

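The promoters described here are those that lie in CpG-rich DNA but carried no DNase-seq peak in adult mouse cerebellum. They were chosen by the reference sequence and by the measured peaks. A start was CpG-rich when the 500 bp on each side held a CpG observed over expected ratio of 0.65 or more and a GC content of 55% or more, and it counted as peak-free when no peak of any deposited list of either library reached within 1 kb. Of 21938 outermost starts of protein-coding genes, 7624 were CpG-rich, and 358 of these (4.70%) were peak-free. Over all coding starts 8624 (39.3%) were peak-free, so a further 8266 peak-free starts were not CpG-rich by these thresholds and are called CpG-poor below. Because the absence of a peak was selected on, it is no finding, and the other values that the same libraries give at these starts are descriptions that carry no test. The 358 starts lie at 351 separate places when starts within 1 kb of each other are joined.

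DNase-seq cuts accessible DNA in isolated nuclei with DNase I and sequences the cut ends. The tissue was whole cerebellum of male B6CASTF1/J mice, which carry a B6 and a CAST genome as first-generation hybrids, at an age of 8 to 10 months and untreated as far as the labels say. The 2 libraries are 2 biological replicates of this single group, with 2 cerebellum biosamples pooled for each, and whether any animal gave tissue to both pools is not stated in the labels. Each library came with a stricter list of peaks (61776 in replicate 1 and 71141 in replicate 2), a longer list (99710 and 114935), footprints (314116 and 320832) and a false discovery rate (FDR) of the local cut rate for every base where it was under 0.05, together 34.9 and 41.4 Mb. All 7 granule cell markers that were looked up (Neurod1, Zic1, Zic2, Gabra6, Cbln3, Pax6 and Barhl1) had a peak within 1 kb of their outermost start, whereas 6 of 6 microglia markers had none. Markers without a peak were 2 of 5 for Purkinje cells, 2 of 5 for interneurons and 2 of 4 for astrocytes. They were 3 of 7 for oligodendrocytes and 4 of 6 for vessels. Of the granule cell markers 2 had a CpG-rich start, and of the microglia markers 0. In a bulk tissue, opening in few cells and weak opening in many cells cannot be told apart, and neither parental allele was resolved.

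CpG-rich promoters, or CpG islands, are the stretches of vertebrate DNA in which CpG dinucleotides have been kept, and they serve housekeeping genes as well as many genes that direct development. Most are unmethylated and accessible in most tissues. Islands of developmental regulators are well known as places where Polycomb complexes hold a gene silent, and islands of some germ-line genes are well known as places of DNA methylation in the body's other cells. None of these marks was measured here.

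The 200 bases upstream of 5 peak-free starts are printed because each stands for a different kind of member. Pou4f1 had the highest CpG ratio among the peak-free homeobox genes outside the Hox clusters, and Fkbp6 among the peak-free germ-line genes. Rftn1 held the most bases with FDR under 0.05, Sim2 had the widest CpG-rich stretch, and Klf14 had the highest CpG ratio of all the starts without a base of FDR under 0.05 within 10 kb. CpG dinucleotides are in capitals, and each sequence reads 5′ to 3′ along the gene's strand in mm10 (GRCm38). The stretches are chr14:104468000-104468199 (minus strand), chr5:135350045-135350244 (minus), chr17:50190675-50190874 (minus), chr16:94084731-94084930 (plus) and chr6:30959079-30959278 (minus).
Pou4f1: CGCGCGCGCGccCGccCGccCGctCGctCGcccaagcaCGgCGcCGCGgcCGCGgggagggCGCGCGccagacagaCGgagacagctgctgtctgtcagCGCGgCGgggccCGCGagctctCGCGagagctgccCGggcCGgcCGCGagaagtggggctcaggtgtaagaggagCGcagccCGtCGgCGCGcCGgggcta
Fkbp6: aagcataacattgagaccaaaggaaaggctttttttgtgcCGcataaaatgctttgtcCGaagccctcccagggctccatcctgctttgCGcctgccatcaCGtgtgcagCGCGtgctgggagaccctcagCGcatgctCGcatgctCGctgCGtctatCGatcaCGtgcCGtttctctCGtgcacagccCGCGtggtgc
Rftn1: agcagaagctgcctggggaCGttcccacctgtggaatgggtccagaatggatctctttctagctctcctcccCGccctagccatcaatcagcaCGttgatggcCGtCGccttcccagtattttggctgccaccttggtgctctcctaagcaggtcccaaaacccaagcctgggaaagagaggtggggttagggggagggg
Sim2: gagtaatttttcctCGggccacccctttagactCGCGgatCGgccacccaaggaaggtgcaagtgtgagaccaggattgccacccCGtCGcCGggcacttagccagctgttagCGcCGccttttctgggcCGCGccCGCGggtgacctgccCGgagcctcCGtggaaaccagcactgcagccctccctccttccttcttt
Klf14: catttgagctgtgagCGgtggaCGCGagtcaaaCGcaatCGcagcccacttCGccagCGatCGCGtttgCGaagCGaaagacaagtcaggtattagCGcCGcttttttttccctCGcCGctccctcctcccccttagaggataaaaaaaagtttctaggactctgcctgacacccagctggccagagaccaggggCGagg
The Pou4f1 stretch holds 37 CpGs and the Rftn1 stretch 5, with a GC content of 79.5% and 58.5%. Sim2 and Klf14 each belong to wide or dense islands, yet the 200 bases beside their starts hold 15 and 16 CpGs. For comparison, the same stretch is shown for 2 CpG-rich genes of the same kinds that had a peak, the homeobox gene Barhl2 (chr5:106458167-106458366, minus) and the germ-line gene Ybx2 (chr11:69935596-69935795, plus).
Barhl2: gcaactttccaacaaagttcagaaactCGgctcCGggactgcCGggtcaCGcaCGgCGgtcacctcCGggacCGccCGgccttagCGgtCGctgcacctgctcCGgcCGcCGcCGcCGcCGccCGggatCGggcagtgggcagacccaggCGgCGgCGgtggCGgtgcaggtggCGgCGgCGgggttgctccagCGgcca
Ybx2: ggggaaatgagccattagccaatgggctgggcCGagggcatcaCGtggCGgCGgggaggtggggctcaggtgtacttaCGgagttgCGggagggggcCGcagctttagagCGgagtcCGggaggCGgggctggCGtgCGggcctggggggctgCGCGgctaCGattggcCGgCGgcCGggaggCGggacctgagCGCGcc
With 27 and 21 CpGs, the upstream stretches of Barhl2 and Ybx2 fall within the range of the peak-free ones, so CpG number over this length does not sort the 7 sequences by the presence of a peak.

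At the peak-free CpG-rich starts the cut rate seldom reached the deposited FDR limit of 0.05. Within 1 kb, a base with FDR under 0.05 was found at 30 of 358 starts (8.38%) in replicate 1 and at 15 (4.19%) in replicate 2, a mean of 6.28% ± 2.96 (SD, n = 2 libraries). Among CpG-rich starts with a peak the share was 98.7% ± 1.25, among CpG-poor peak-free starts 1.37% ± 0.103, and over all coding starts 59.9% in replicate 1 and 58.7% in replicate 2. The peak-free CpG-rich starts therefore sat close to the CpG-poor ones and above them in both libraries. Within 1 kb of the 358 starts no base had an FDR under 0.01, and no footprint lay there in either library, against at least 1 footprint at 98.6% and 95.4% of the CpG-rich starts with a peak. The lowest FDR reached at a peak-free CpG-rich start was 0.0262 in replicate 1 and 0.0186 in replicate 2. These values come from the same reads as the peaks that chose the starts.

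**Figure D1:**
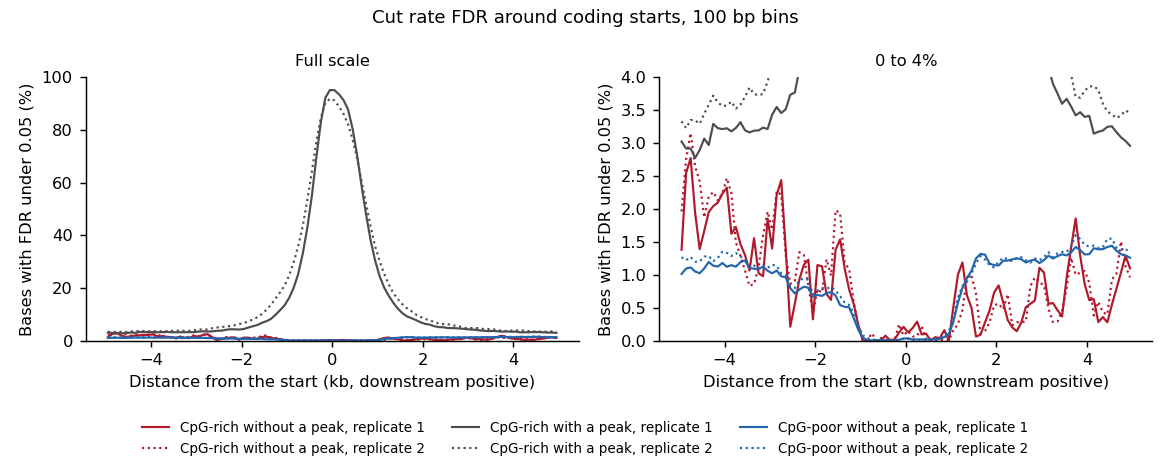
Share of bases with a cut rate FDR under 0.05 (y axis, %) in 100 bp bins from 5 kb upstream to 5 kb downstream of coding starts (x axis, kb), for 358 CpG-rich starts without a peak, 7266 CpG-rich starts with a peak and 8266 CpG-poor starts without a peak, with replicate 1 solid and replicate 2 dotted. The right panel enlarges the low part of the scale, where the CpG-rich starts without a peak show small humps near the start and more covered bases 1 to 5 kb upstream than downstream.

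The few bases that did pass lay close to the start and were rarely shared by the libraries. In replicate 1, 28 of the 30 starts had theirs within 500 bp, and in replicate 2, 12 of 15. Starts with any such base held a median of 15.5 bases in replicate 1 and 26 in replicate 2, in runs of at most 48 and 47 bases. Over the genome, 98.4% and 97.9% of the runs of 50 bp or more overlapped a peak of their own library, against 47.1% and 45.1% of the shorter runs. Both libraries had a base with FDR under 0.05 at 3 of the 358 starts, either library at 42, and neither at 316 (88.3%). At 130 starts (36.3%) no such base was found within 10 kb in either library. Of these, after Klf14, a zinc finger factor with a CpG ratio of 1.12, the highest ratios belonged to Pou4f1 with 1.01 and Sall3 with 1.01, then to BC107364 with 1.00 and Zyg11a, which encodes a substrate receptor of a ubiquitin ligase, with 0.999. Dchs1, a large protocadherin of planar cell polarity, followed with 0.990, and Aldh1a2, the main retinoic acid-making enzyme of the embryo, had 0.931. Dchs1 carried 7 stricter peaks inside the gene in replicate 1 and 0 in replicate 2, and had a peak 229 bp from another of its annotated starts. High CpG density at the start was thus found together with 10 kb of flanking DNA in which no base passed.

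Rftn1, which encodes raftlin, a lipid raft protein known from B cells, held 82 bases with FDR under 0.05 in replicate 1 and 47 in replicate 2. Ankrd33b, a little-described ankyrin repeat gene, held 50 and 5 bases. Ripply3, a co-repressor of T-box factors, held 18 and 31 bases. These are the 3 starts with a base in both libraries, and their lowest FDRs lay between 0.0262 and 0.0464. Rasgrf2, an exchange factor for Ras in neurons, held 0 bases in replicate 1 and 47 in replicate 2, and Bmp7, a bone morphogenetic protein, 0 and 42. Npnt, a matrix protein needed for kidney development, showed the opposite order with 41 bases in replicate 1 and 0 in replicate 2, as did Shisa6, an auxiliary protein of AMPA receptors, with 34 and 0. At such starts each library on its own gave a short run that the other did not show.

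**Figure D2:**
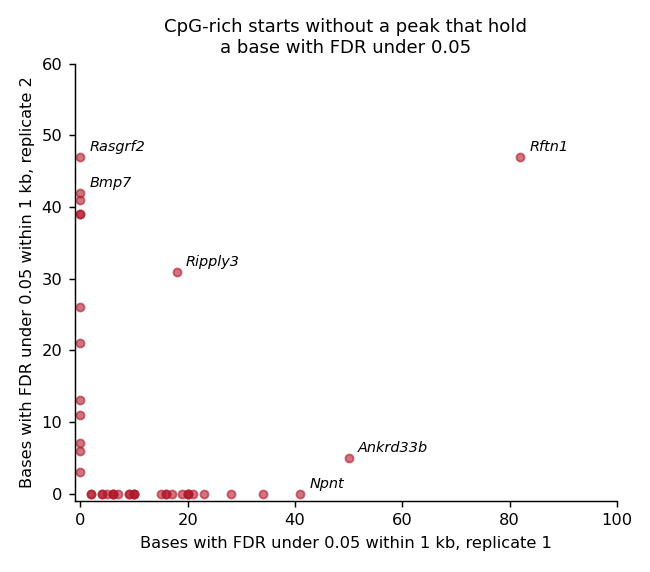
Number of bases with FDR under 0.05 within 1 kb of the start in replicate 1 (x axis) and replicate 2 (y axis) for the 42 CpG-rich starts without a peak that hold any, each point 1 start. Only Rftn1, Ankrd33b and Ripply3 lie off both axes, and the other 316 starts, at 0 in both libraries, are not drawn.

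How stable the choice is can be read by applying the rule to 1 library and looking at the other, which was then not used. Chosen on replicate 1 alone, 398 CpG-rich starts were peak-free, and 358 of them (89.9%, Wilson 95% interval 86.6 to 92.5, counting error only) had no peak in replicate 2 either. Only 4 of the 398 had a peak of the stricter list there. Chosen on replicate 2 alone, 559 CpG-rich starts were peak-free, and 64.0% of them (59.98 to 67.9) had no peak in replicate 1, while 60 had a stricter one. By contrast, of the CpG-rich starts with a peak in replicate 1, 2.78% had none in replicate 2, and of those with a peak in replicate 2, 0.566% had none in replicate 1. Replicate 2 thus left more CpG-rich starts without a peak although both of its peak lists are longer, and the part that depth or library quality has in this was not tested. Among all 7624 CpG-rich starts, 6717 (88.1%) had a stricter peak in both replicates, 269 in 1 replicate, and 280 had a peak of the longer list alone.

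The gene families behind the peak-free CpG-rich starts were led by developmental transcription factors. Homeobox genes, whose products bind DNA through the homeodomain and set the identity of body regions and cell types, made up 52 of the 358 (14.5%, 11.3 to 18.6). They were 52 of the 99 CpG-rich homeobox starts, or 52.5%, where 4.70% of all CpG-rich starts were peak-free. Together with forkhead, Sox, T-box, GATA and bHLH factors, 69 of 171 CpG-rich starts (40.4%) were peak-free. The lists were put together with earlier results of these data known, so the counts describe the members and carry no test.

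Hox genes, the clustered regulators of position along the body axis, were peak-free at 16 of 17 CpG-rich starts. In replicate 1 none of the 16 held a base with FDR under 0.05, and in replicate 2 only Hoxd3 and Hoxd4 did, whose outermost starts are 2 bp apart and share the same 39 bases. Hoxa13 and Hoxd13, the genes of the hindmost body and the digits, had CpG ratios of 0.931 and 0.899 and GC contents of 73.9% and 72.4%, and Hoxa4 had 0.921 and 73.7%. Each of these 3 starts had 0 bases with FDR under 0.05 in both replicates, and their nearest peaks were 3640, 4656 and 19894 bp away. The exception was Hoxd1, which had a peak 16 bp from its start but only 71 bases with FDR under 0.05 in replicate 1 and 0 in replicate 2.

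Of the other homeobox genes, 36 of 82 CpG-rich starts were peak-free. Pou4f1, a factor of sensory neurons, had the highest CpG ratio at 1.01, with 0 bases of FDR under 0.05 in both replicates and the nearest peak 33680 bp upstream. Vax1, which acts in the ventral forebrain and the optic nerve, had a ratio of 0.947 and a nearest peak at 28225 bp, again with 0 bases in both. Gsc, named for its role in the embryonic organiser, had a ratio of 0.936 and held 2 bases in replicate 1 and 0 in replicate 2. The 46 homeobox genes with a peak include factors of cerebellar development. Barhl2 had a CpG ratio of 1.07 with 1967 and 2001 bases of FDR under 0.05, and En2, a regulator of midbrain and hindbrain patterning, a ratio of 1.00 with 1638 and 895 bases. Over the list, the median CpG ratio was 0.786 in peak-free starts and 0.804 in those with a peak, so peak-free homeobox promoters were nearly as CpG-rich.

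Forkhead factors were peak-free at 7 of 29 CpG-rich starts. Foxf2 and Foxf1, factors of the mesenchyme of gut and lung, had CpG ratios of 0.856 and 0.849 and their nearest peaks 6800 and 8375 bp downstream. Foxd3, a factor of neural crest and early embryonic cells, had a ratio of 0.821 and its nearest peak at 4823 bp. All 7 held 0 bases of FDR under 0.05 in both replicates. The forkhead genes with a peak included Foxk2 and Foxo1, which are active in many tissues, with 1769 and 1797 bases for Foxk2 and 1881 and 1814 for Foxo1. The peak-free forkhead starts lay in wide CpG-rich stretches with a median of 2500 bp, against 1525 bp for those with a peak.

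The bHLH family had 4 of 23 CpG-rich starts without a peak, namely Bhlhe23, Twist2, Olig2 and Ptf1a. The last, named here after its values were seen, is the factor that in the embryo specifies the inhibitory neurons of the cerebellum, and its start held 0 bases of FDR under 0.05 in both replicates. Olig2, which directs the oligodendrocyte lineage, had its nearest peak 40600 bp downstream, with 0 stricter peaks within 50 kb in replicate 1 and 2 in replicate 2. Olig1, its neighbour and the other CpG-rich oligodendrocyte marker, had a peak. Pax2, a marker of cerebellar interneurons and their precursors, held 0 bases in replicate 1 and 6 in replicate 2, while the interneuron markers Lhx1 and Slc32a1 had a peak. GATA factors were peak-free at 2 of 2 CpG-rich starts, T-box factors at 2 of 4 and Sox factors at 2 of 14. The Sox share was 14.3% (4.01 to 39.9, Wilson 95%), an interval that includes the 4.70% of all CpG-rich starts. A further 32 members, grouped after the members were seen, encode other DNA-binding or chromatin proteins such as Wt1, Sall3, Klf14, Hmga2 and Glis1. This group was drawn from the members alone, so no share of CpG-rich starts stands beside the 32.

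**Figure D3:**
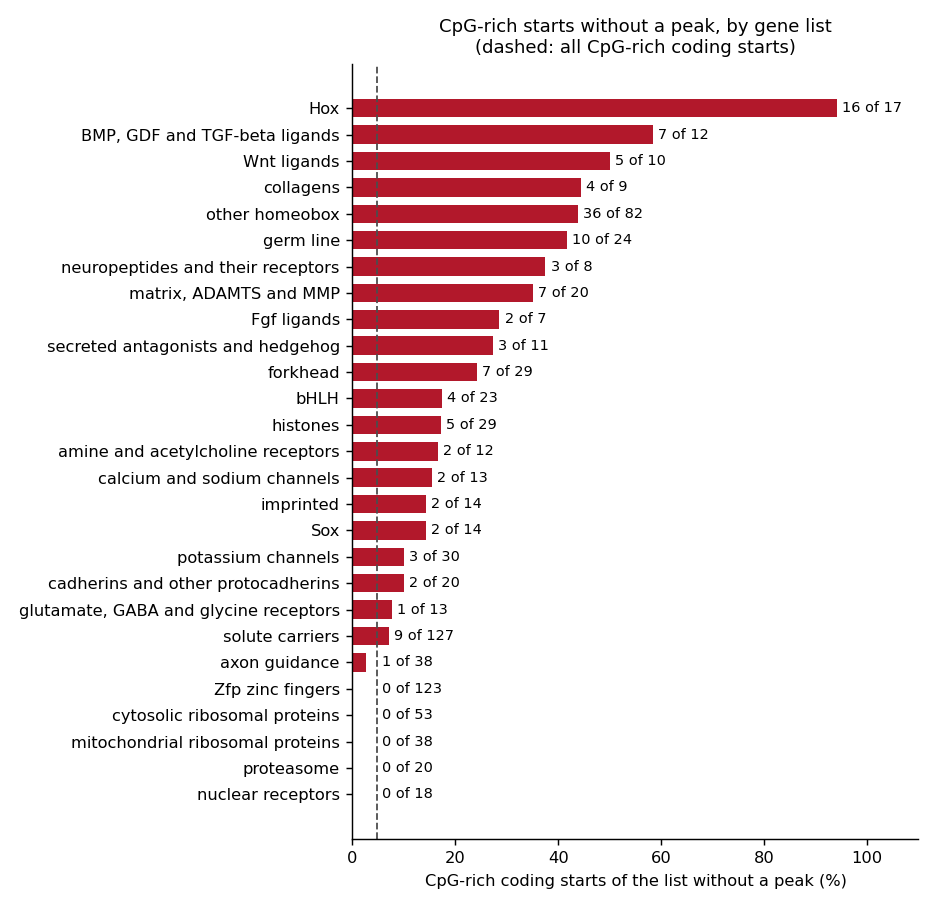
Share of the CpG-rich coding starts of each gene list that have no peak (x axis, %), for the 27 lists with at least 7 CpG-rich starts, with the number of peak-free starts and of CpG-rich starts beside each bar. Hox genes stand at the top with 16 of 17, and zinc fingers of the Zfp series, ribosomal proteins, proteasome subunits and nuclear receptors have none, while the dashed line marks 4.70% for all CpG-rich coding starts.

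Secreted signals formed the next group. Over the lists of Wnt, Fgf, BMP with TGF-beta, and hedgehog with secreted antagonists, 17 of 40 CpG-rich starts (42.5%) were peak-free. Wnt ligands, which signal through frizzled receptors, were peak-free at 5 of 10. Wnt4, needed in the kidney and the female reproductive tract, had the highest CpG ratio of them at 0.859 and its nearest peak 10461 bp downstream within the gene. Ligands of the BMP, GDF and TGF-beta family were peak-free at 7 of 12. Bmp2, an inducer of bone, had a ratio of 1.08, held 17 bases of FDR under 0.05 in replicate 1 and 0 in replicate 2, and had a peak 1557 bp upstream. Gdf11, which patterns the body axis, held 0 bases in both and had its nearest peak 3823 bp upstream. Bmp6 and Inhbb of the same family had a peak, with 245 and 273 bases in Bmp6 and 1275 and 660 in Inhbb. Sfrp2, a Wnt antagonist, and Ihh, the hedgehog ligand of cartilage, were peak-free with 0 bases in both replicates and nearest peaks 1741 and 2552 bp away.

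Matrix genes formed a further group. Collagens were peak-free at 4 of 9 CpG-rich starts, and fibrillins, laminins and proteases of the ADAMTS and MMP families at 7 of 20. Col5a1, a regulator of collagen fibril width, held 19 bases of FDR under 0.05 in replicate 1 and 0 in replicate 2, and carried 7 and 10 stricter peaks inside the gene. Col27a1, a cartilage collagen, held 0 bases in both and carried 19 and 15 stricter peaks inside the gene, with the nearest peak 1222 bp downstream at another of its annotated starts. Fbn2, a fibrillin of elastic microfibrils, held 0 bases and had its nearest peak 13437 bp downstream inside the gene. Col5a1 and Col27a1 thus carried many peaks along the gene while their outermost start carried none.

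Germ-line genes were peak-free at 10 of 24 CpG-rich starts. Fkbp6, a co-chaperone needed in meiosis and for piRNAs, had a CpG ratio of 0.765, Slc25a31, the ADP/ATP carrier of sperm, 0.754, and Tdrd6, a tudor protein of spermatids, 0.744. All 10 germ-line starts held 0 bases of FDR under 0.05 in both replicates. Among the germ-line genes with a peak, Tdrd5 held 201 bases in replicate 1 and 0 in replicate 2, and Ybx2, a binder of stored messages in germ cells, held 1091 and 1261. The median CpG ratio was 0.689 in the peak-free germ-line starts and 0.744 in those with a peak.

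Each list of neuronal signalling gave at most 3 members. The peak-free shares of the channel and receptor lists were above the 4.70% of all CpG-rich starts. Apart from the list of neuropeptides and their receptors, their Wilson 95% intervals reached down to about 4.70% or lower. Read 1 at a time, such lists cannot be told apart from the share of all CpG-rich starts. Unlike the factor families and secreted signals, they were not pooled, so whether they lie above it together was not tested. Potassium channels were peak-free at 3 of 30 CpG-rich starts (Kcnk15, Kcnj4 and Kcnk6), or 10.0% (3.46 to 25.6, Wilson 95%). Calcium and sodium channels were peak-free at 2 of 13, or 15.4% (4.33 to 42.2). Receptors for glutamate, GABA or glycine were peak-free at 1 of 13, or 7.69% (1.37 to 33.3), which was Gabra5, a GABA-A receptor subunit best known from the hippocampus. Receptors for amines and acetylcholine were peak-free at 2 of 12, or 16.7% (4.70 to 44.8). These were the dopamine receptor gene Drd5 and the serotonin receptor gene Htr6. Neuropeptides and their receptors were peak-free at 3 of 8, or 37.5% (13.7 to 69.4). Oprd1, the delta opioid receptor, and Sstr4, a somatostatin receptor, held 0 bases of FDR under 0.05 in both replicates with nearest peaks 10066 and 13953 bp away. Slc18a3, the vesicular acetylcholine transporter of cholinergic neurons, likewise held 0 bases in both and had a CpG-rich stretch of 2800 bp. Axon guidance genes were peak-free at 1 of 38, or 2.63% (0.466 to 13.5), an interval that includes the 4.70% of all CpG-rich starts. The peak-free start was that of Slit2, with its nearest peak 118002 bp away.

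The Zfp zinc finger genes had no peak-free start among 123 CpG-rich ones, a share with a Wilson 95% upper bound of 3.03%, under the 4.70% of all CpG-rich starts. Cytosolic ribosomal proteins had 0 of 53, mitochondrial ribosomal proteins 0 of 38, proteasome genes 0 of 20 and nuclear receptors 0 of 18. The upper bounds of these 4 lists ran from 6.76% to 17.6%, so their 0 cannot be told apart from the share of all CpG-rich starts. Solute carriers stood near the share of all CpG-rich starts with 9 of 127 (7.09%). Of these, Slc45a3, a sugar transporter known from the prostate, had a CpG ratio of 0.828. Slc47a2, an exporter of organic cations, had 0.809, and both held 0 bases of FDR under 0.05 in either replicate. Slc4a11, a transporter of the corneal endothelium, had 0.807 with 15 bases in replicate 1 and 0 in replicate 2. Of the 358 members, 200 were in none of the lists and were not predicted genes. These 200 were 3.06% of the 6539 CpG-rich starts of such genes. The 200 include 13 genes of growth factors and receptors and 3 enzymes of retinoic acid metabolism (Aldh1a2, Aldh1a3 and Cyp26a1), both grouped after the members were seen. Both groups were drawn from the members alone, so no share of CpG-rich starts stands beside them.

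Duplicated sequence marks a small subset of the members. At 20 of 358 starts (5.59%) at least 50% of the 32-base words within 1 kb of the start occur elsewhere in the genome. The same held for 33 of 7266 CpG-rich starts with a peak (0.454%), 16.0% of CpG-poor peak-free starts and 6.75% of all coding starts. All 5 peak-free histone genes belong to this subset, including Hist1h2ap, Hist1h2br and Hist1h2ao with 100% each and Hist2h3c1 with 80.6%, and so do Trim7 with 62.7%, BC107364, Entpd4, Slc25a37 and several predicted genes. Reads from such copies cannot be placed uniquely, and how the authors treated them was not given in the sources used here, so a missing peak at these 20 starts cannot be told apart from missing reads. The list counts above include them. Without them the members number 338 and homeobox genes make up 15.4%.

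The peak-free CpG-rich starts had slightly lower CpG ratios and about the same GC content and width as CpG-rich starts with a peak, all within the limits of the rule. Their median CpG ratio was 0.762, against 0.814 with a peak, their median GC content 63.8% against 62.9%, and the CpG-rich stretch through the start had a median width of 1200 bp against 1250 bp. With predicted genes left out, the widest stretches among them were those of Sim2 with 3300 bp, Foxf1 with 3150 bp, Sall3 with 2950 bp, Foxl2 with 2850 bp, and Fgfr3 and Slc18a3 with 2800 bp each. Sim2, a factor of forebrain and muscle development, held 10 bases of FDR under 0.05 in replicate 1 and 0 in replicate 2. Sall3, a zinc finger factor of limb and nervous system, had a GC content of 77.2%, held 0 bases in both replicates and had no stricter peak within 50 kb in either. Fgfr3, a growth factor receptor of bone and astrocytes, held 16 bases in replicate 1 and 0 in replicate 2. Dio3, an imprinted gene for the enzyme that inactivates thyroid hormone, spanned 2700 bp with its nearest peak 50988 bp away. Their genes were shorter, with a median of 20252 bp against 29378 bp, and 29.6% of them had a single annotated start, against 11.1% with a peak.

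Short motifs of promoter-binding factors differed in part between the groups. Letters were matched without mismatch on both strands from 250 bp before to 50 bp after the start, and a match is a description of the sequence, not a binding site. At least 1 of the 10 motifs was present in 90.5% of the peak-free CpG-rich promoters and in 91.7% of those with a peak. The ETS letters CCGGAAG were found in 4.47% (2.77 to 7.14, Wilson 95%) against 18.8% (17.9 to 19.7). The NRF1 letters GCGCATGCG were found in 0.838% against 4.51%, the YY1 letters AAGATGGC in 1.40% against 4.83%, and the CRE letters TGACGTCA, which read the same on both strands, in 1.12% against 3.95%. For each of these 4 motifs the intervals of the 2 groups did not overlap. With stricter CpG thresholds only those of ETS stayed apart. Over all 21938 coding promoters the shares were 10.8% for ETS, 2.48% for NRF1, 2.92% for YY1 and 2.43% for CRE.

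The SP and KLF letters and the E-box were about as frequent in both groups of CpG-rich promoters. The SP and KLF letters GGGCGG were found in 74.9% without a peak and 76.7% with one. The E-box CACGTG, also its own reverse complement, was found in 11.5% and 11.3%. The NFY letters CCAAT were found in 31.6% and 36.9%, with overlapping intervals. Within 100 bp each side of the start the NFY shares were 20.1% (16.3 to 24.6) and 27.6% (26.6 to 28.6), which did not overlap. The TATA letters TATAAA went the other way, with 8.10% (5.70 to 11.4) without a peak and 4.80% (4.34 to 5.32) with one. The RFX letters GTTGCCATG and the REST letters TTCAGCACC were found in 0 of 358, which allows a share of up to 0.838% when 3 counts are taken as the limit and up to 1.06% by the Wilson 95% interval, and in 0.592% and 0.372% of the promoters with a peak. None of the 10 motifs contains another. Over all coding promoters the shares were 43.0% for SP and KLF, 7.75% for the E-box, 39.0% for NFY, 12.65% for TATA, 0.6245% for RFX and 0.383% for REST. Of the 5 peak-free sequences printed above, Pou4f1 and Rftn1 hold the SP and KLF letters, Fkbp6 holds the E-box, and Sim2 and Klf14 hold none of the 10.

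**Figure D4:**
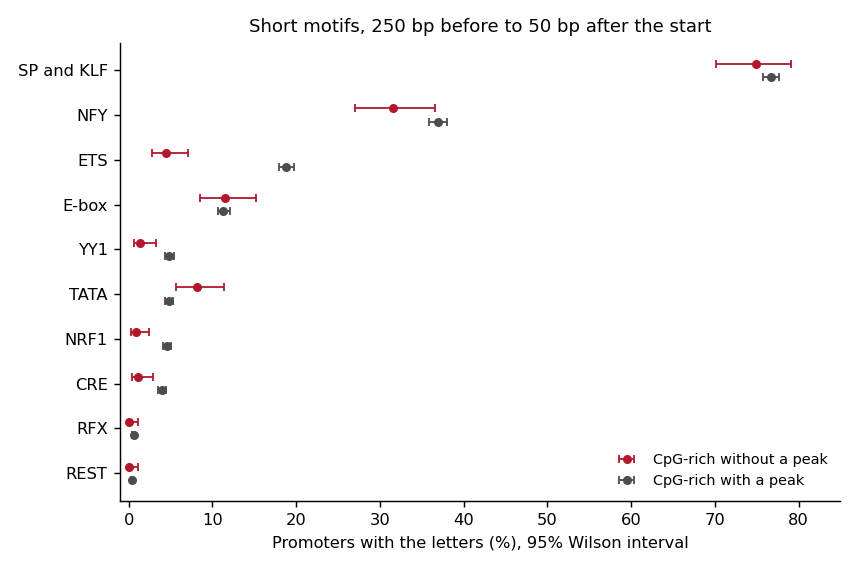
Share of promoters (x axis, %) that hold the letters of each of 10 short motifs, for 358 CpG-rich starts without a peak (upper point of each pair) and 7266 with a peak (lower point), with Wilson 95% intervals as bars. The ETS, YY1, NRF1 and CRE points of the promoters without a peak lie to the left of those with a peak, and the TATA point lies to the right.

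Peaks were more common in the neighbourhood of the peak-free CpG-rich starts than around the CpG-poor peak-free ones. The nearest peak of any list was a median of 9222 bp away (quartiles 4619 and 20315 bp), against 16019 bp (6252 and 44094 bp) for CpG-poor peak-free starts. Of the 8266 CpG-poor peak-free starts, 1440 were those of olfactory and vomeronasal receptor genes. Predicted genes named Gm or Rik gave 1502 of all 8624 peak-free starts. The comparison was not made without these genes, so it is not one of CpG content alone. Within 10 kb, 192 of the 358 starts (53.6%) had a peak, against 36.5% of the CpG-poor peak-free starts. Over all coding starts, where peaks at the start itself count too, the share was 75.3%. Each library on its own gave 170 starts (47.5%), and the CpG-poor peak-free starts 31.4% ± 1.45 (SD, n = 2 libraries). Only 26 starts (7.26%) had no peak within 50 kb, against 22.5% of the CpG-poor ones, and Isl1, a factor of motor and sensory neurons, was at 229690 bp. The stricter lists held a median of 3 peaks within 50 kb in both replicates, against 5 and 6 for CpG-rich starts with a peak. The medians were 1 and 1 for CpG-poor peak-free starts and 4 and 4 over all coding starts. For CpG-rich starts with a peak and all coding starts, these counts include peaks within 1 kb, which the rule excluded for the 358. Within 5 kb the medians were 0 for the 358 and 2 for CpG-rich starts with a peak, in both replicates. The nearest stricter peak was of middling strength. By the authors' signal it stood at a median rank of 48.5% of its list in replicate 1 and 42.3% in replicate 2, against 40.1% and 32.4% for the peaks nearest to CpG-poor peak-free starts.

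**Figure D5:**
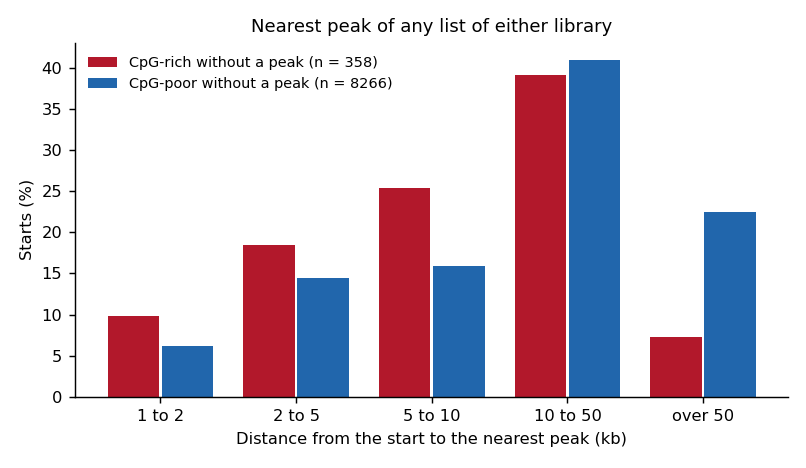
Distance from the start to the nearest peak of any list of either library (x axis, kb) as a share of starts (y axis, %), for 358 CpG-rich starts without a peak and 8266 CpG-poor starts without a peak. The bars of the CpG-rich starts are taller in each class up to 10 kb, and the bar over 50 kb is shorter, with 7.26% against 22.5%.

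The nearest peak lay between genes for 145 of the 358 starts, inside the gene itself for 82, inside another gene for 62, at the start of another gene for 53 and at another annotated start of the same gene for 16. It lay upstream of 196 starts and downstream of 162, and for 204 it overlapped a peak of the other library. Of the 358 starts, 71 had the start of another gene within 1 kb, for 66 of them on the opposite strand, and 77 lay inside another gene. Draxin, a repellent of growing axons, and Mad2l2, a subunit of DNA polymerase zeta, whose starts are on opposite strands 314 bp apart, had the densest surroundings with 38 stricter peaks within 50 kb in replicate 1 and 40 in replicate 2. Col8a2, a collagen of the cornea, had 26 and 39. Dbn1, which encodes drebrin, an actin-binding protein of dendritic spines, had 16 and 19 and its nearest peak 5970 bp upstream, while its outermost start held 10 bases of FDR under 0.05 in replicate 1 and 0 in replicate 2. Crowded surroundings therefore occurred around starts with no or few such bases.

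The flanks of the peak-free CpG-rich starts were unequal. From 1 to 5 kb upstream, 1.4% of bases in replicate 1 and 1.56% in replicate 2 had an FDR under 0.05, and from 1 to 5 kb downstream 0.673% and 0.645%. CpG-poor peak-free starts showed the other order, with 0.912% and 1.01% upstream and 1.22% and 1.26% downstream. In number of starts the difference was smaller. A base with FDR under 0.05 lay upstream in this range at 54 and 61 of the 358 starts, and downstream at 45 in both replicates. No test was made of this difference.

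For some genes the outermost annotated start was peak-free while another start was not. Of the 358 genes, 170 have an annotated start over 1 kb from the outermost one, and 42 of these (24.7%, or 11.7% of all 358) had a peak within 1 kb of such a start. The same share among the 5055 CpG-rich genes with a peak and a distant start was 40.1%. It was 23.6% for CpG-poor peak-free starts, close to that of the CpG-rich peak-free ones, and 37.1% over all coding starts. In the 40.1% and 37.1%, a peak within 1 kb of the outermost start can also count at the other start. The rule excluded such peaks for the 358, so these shares are not on equal terms with the 24.7%. Sept9, a septin of the cytoskeleton, and Chrdl2, a BMP antagonist, each had a peak directly over another start and 0 bases of FDR under 0.05 in both replicates at the outermost one. With starts within 1 kb of the outermost included, 313 of the 358 genes had no peak at any annotated start.

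The thresholds cut through a continuous range. Just inside the CpG ratio were Lamc3 with 0.6501, Hoxc9 with 0.6508 and Degs2 with 0.6516, and just outside it Foxn4 with 0.649, Rhox13 with 0.6482 and Arid3c with 0.6481. Just inside the distance were Rin3 with a peak at 1036 bp, Npbwr1 at 1038 bp and Fgf8 at 1053 bp, and just outside it Plxdc1 at 997 bp, Eif4ebp1 at 992 bp and Tfap2c at 928 bp. Just inside the GC content were Ppp1r36, which stands at the limit itself, and Gm4767 and Psd4 with 55.1%, and just outside it Helt with 54.8%, Zfp433 with 54.6% and Hoxa5 with 54.5%. Hoxa5 had a CpG ratio of 0.998 and no peak, so the GC threshold alone kept it out. Among the members 197 had a CpG ratio of 0.75 or more and 85 a ratio under 0.70.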

How the data were processed

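DNase-seq data of 2 cerebellum libraries were used as deposited. Per the labels, positions are in mm10, and per the text deposited with the files each list was made from a single library without pooling. The authors' peak lists carry a signal value per peak, a coverage measure of unstated scale, used here only to rank peaks within a list. The authors' deposited FDR of the cut rate, a q-value, is given for intervals under 0.05 alone, and footprints carry a constant value. With aligner, peak caller, read depth and any mappability filter not given in the sources used here, no interval for depth was attached to the cut rate.

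Outermost starts came from GENCODE mouse release 21 on 21 chromosomes. CpG ratio and GC were computed over 1000 bp of the GRCm38 sequence. Distances run from the start to the nearest peak edge. Width is that of joined 500-bp windows, moved by 50 bp, that pass both thresholds. Duplication is the share of 32-base words found elsewhere on the 21 chromosomes. Shares carry Wilson 95% intervals for counting error only, since genes are not replicates, and no test was run. Members, gene lists (40) and motifs (10) were chosen with earlier results of these data known. Genes named are, per list with 3 or more members, the 3 with the highest CpG ratio, those with the most bases of FDR under 0.05, the most peaks within 50 kb, the widest stretch or no base within 10 kb, the nearest to each threshold, and CpG-rich genes of the 6 largest lists with a peak, and any other gene named was chosen after its values were seen. Predicted genes were counted but named only near a threshold or where no base passed within 10 kb. Functions were tested on simulated starts. Python 3.11.15, numpy 2.4.6, pandas 2.3.3 and statsmodels 0.14.6 were used.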

Additional observations from a re-analysis of the deposited data

How the results depend on the processing

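The number of peak-free CpG-rich starts was 161 with stricter CpG thresholds (ratio of 0.75 and GC of 60%) and 638 with the stricter peak lists alone, and it ranged from 398 to 559 when 1 replicate was left out, with the higher number without replicate 1. It stayed within 1.5 times of 358 under a 250-bp CpG window (477), the longer lists alone, other distances, peak middles and all annotated starts. The share with a base of FDR under 0.05 was 0.0% at an FDR under 0.01 and 14.0% within 2 kb. It ran from 9.3% to 9.84% when the starts were chosen and read in a single library, and the median number of such bases was 0 under every setting run. The share with a peak within 10 kb was 42.2% with the stricter lists, 28.2% within 5 kb, 92.7% within 50 kb and 46.5% to 48.5% with 1 replicate left out. The share with a peak at another start was 15.6% within 2 kb, 8.38% with the stricter lists and 10.6% to 13.2% with 1 replicate left out. Homeobox genes made up 10.8% of the larger set from the stricter lists alone and between 14.5% and 15.7% under the other settings. Any of the 10 motifs was present in 83.0% when the window was 100 bp each side, against 88.15% of the CpG-rich promoters with a peak. The share that lacked a peak in the library not used to choose was 64.0% when chosen on replicate 2. With stricter CpG thresholds the ETS share was 2.48% (0.97 to 6.21) in peak-free promoters and 16.3% (15.2 to 17.5) in those with a peak. The other 3 motifs whose intervals had not overlapped stayed lower in peak-free promoters, but their intervals then overlapped. NRF1 had 1.24% (0.341 to 4.42) against 4.21% (3.63 to 4.89). YY1 had 1.86% (0.636 to 5.33) against 4.82% (4.2 to 5.53), and CRE 1.24% (0.341 to 4.42) against 3.94% (3.37 to 4.59). Leaving out duplicated sequence and counting starts within 1 kb once were chosen after seeing the data and moved none of the main shares beyond their spread. The causes were not tested. No paired analysis was possible because the 2 libraries form a single group and no test compares groups of samples. With 2 libraries and an unknown number of reads, a weakly open promoter cannot be told apart from a closed one.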
